A study of Mus musculus with 16 samples.

Results

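Lcn2, Saa3, C3, Steap4, Cxcl5, Cxcl1, Ccl2, Nfkbia, Nfkbiz and Tnfaip3 are 10 acute phase, chemokine and NF-kB feedback genes, followed here in cultured neural stem cells of the mouse ventricular-subventricular zone (V-SVZ). They were taken by symbol from tables of 24946 genes, and all 10 passed the filter on low values in both tables. Members were chosen by their roles and partly by measured values, since Lcn2, Cxcl5 and Steap4 were higher and Saa3 was lower in mutant libraries, so the genotype change of those 4 genes is given as a description, without a test. Cells came from Tsc2 mutant (Tsc2 mut/mut) and wild-type (Tsc2 wt/wt) pups, and 4 cultures of each genotype gave a total RNA and a polyribosomal RNA library each, 16 libraries in all. Neonatal pups were injected with tamoxifen to activate Nestin-CRE-ERT2, a Cre expressed in Nestin-positive cells, which recombines the conditional Tsc2 alleles and switches on a red fluorescent reporter. The sources do not settle if wild-type animals had the Cre transgene. All cultures were grown as monolayers with growth factors, passaged before isolation and treated with cycloheximide, which holds ribosomes on mRNA. Polyribosomal RNA is the RNA of the heavy fractions of a sucrose gradient. No label ties a culture to an animal, and p-values therefore reflect culture-to-culture spread alone.

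The acute phase response is the rise of a set of secreted proteins after infection or injury, chiefly in the liver but also in reactive glia. Interleukin and Toll-like receptors activate NF-kB, which turns on acute phase and chemokine genes together with its own inhibitors, and STAT3 and C/EBP factors act on many of the same promoters. Nfkbia encodes the inhibitor that holds NF-kB in the cytoplasm, Tnfaip3 encodes a ubiquitin-editing enzyme that ends the signal, and Nfkbiz encodes a nuclear IkB protein that acts as a co-activator of late targets such as Lcn2.

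Values are normalized reads per gene as deposited, on a scale set separately for the total and the polyribosomal table. Estimated depth was 24.7 to 139 M reads for total RNA and 52.2 to 266 M reads for polyribosomal RNA, and 1 read was worth about 0.366 to 2.98 normalized reads, so the lowest polyribosomal values of Saa3 and Cxcl5 rest on few reads. Changes are differences of log2(value + 1), mutant minus wild type, with their standard error, and a gene passed the test at a limma adjusted p under 0.05. How reads shared between close relatives (the Saa and Cxcl families) were counted is not stated. The stem cell markers Vim, Nes, Fabp7 and Olig1 were abundant in every culture (Nes 55291 to 72229.5 in mutant and 44546 to 70622 in wild-type total RNA). Tsc2 itself gave 7076, 6811, 6190.4 and 5592 in mutant and 7836, 6817, 6232 and 6701 in wild-type total RNA, which overlapped (log2 change -0.10 ± 0.10, limma adjusted p = 0.422), whereas polyribosomal Tsc2 was lower in the mutant (log2 change -0.49 ± 0.15, adjusted p = 0.0389). The deleted exons are not measured apart from the rest of the gene, so this does not check the labels. The summed level of 19 microglial and macrophage markers was 7162, 29896, 5151 and 15998 in mutant cultures 1 to 4 and 4845, 6259.9, 3672 and 5986 in wild-type cultures 1 to 4, highest in mutant cultures 2 and 4. In total RNA 7 of the 19 passed the test, all higher in the mutant. Over all genes tested in total RNA 19.7% were higher and 20.7% were lower (40.3% in either direction), and the marker counts that follow are to be read beside these shares. Of 9 neutrophil markers S100a9, Retnlg and Elane were at 0 in all 16 libraries, and the sum ranged from 15.9 to 42.3 in mutant and from 15.2 to 23.5 in wild-type total RNA. The sums were 2763 to 4261 against 1482 to 2792 for endothelial, 3200.4 to 4046 against 1269.8 to 3578 for pericyte and fibroblast, and 6596 to 8522 against 5363 to 6789.9 for choroid plexus and ependymal markers (mutant against wild-type total RNA), with 2 of 7, 3 of 9 and 2 of 6 tested genes higher and 1, 1 and 0 lower. Of 7 astrocyte markers 4 were higher in mutant total RNA, among them Gfap (22958 to 49320.2 in mutant, 9309 to 21502 in wild type). Of 12 stem cell markers 3 were higher and 1 was lower. The sum of 4 Y-linked genes was 4775, 48.6, 16.4 and 6.57 in mutant cultures 1 to 4 and 4203, 4967, 5802 and 258 in wild-type cultures 1 to 4, low in 3 mutant cultures and in wild-type culture 4. Its part in the genotype changes was not tested beyond a fit with Y-linked level as a covariate.

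Lcn2 encodes lipocalin 2, a secreted protein that binds bacterial siderophores, and lies on chromosome 2 (chr2:32384633-32388252, GRCm38, minus strand). Total RNA held 9757, 6759, 30959.5 and 21395 normalized reads of Lcn2 in mutant cultures 1 to 4, against 3444, 2389.9, 231 and 2857 in wild-type cultures 1 to 4. All mutant cultures lay above all wild-type cultures, and wild-type culture 3 lay far below the other wild-type cultures. The means were 17218 ± 11126 and 2231 ± 1401 (SD, n = 4 each), a 7.72-fold ratio, and the log2 change was 3.24 ± 0.92 (SE). Polyribosomal RNA held 9469, 5471, 26745 and 22441 in mutant and 2249, 1454, 197 and 1609 in wild-type cultures, again without overlap, with a log2 change of 3.72 ± 0.92. Without wild-type culture 3 the change was 2.33 in total and 2.93 in polyribosomal RNA, so more than 2 log2 units remained. Lcn2 is also a neutrophil granule gene, and the summed neutrophil markers were 15.9 to 42.3 in mutant and 15.2 to 23.5 in wild-type total RNA. The parts of neutrophils and of microglia in the Lcn2 change were not tested. Mutant culture 3, which had the most Lcn2, had the lowest microglial sum of the mutant cultures, and without mutant cultures 2 and 4 the change in total RNA was 3.51. With Y-linked level as a covariate it was 2.37 in total and 2.94 in polyribosomal RNA.

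Saa3 (chromosome 7, chr7:46711998-46715700, minus strand) encodes serum amyloid A3, an acute phase apolipoprotein that mice make outside the liver, and it ran the other way. It was at 72.9, 120.4, 122 and 202 in mutant and at 705, 718, 309 and 384 in wild-type total RNA. The highest mutant culture (4) lay below the lowest wild-type culture (3), and the log2 change was -2.02 ± 0.35. Polyribosomal Saa3 was 12.4, 33.4, 31.2 and 40.2 in mutant and 91.0, 133, 122 and 99.7 in wild-type cultures, with a log2 change of -1.99 ± 0.34. The genotype groups did not overlap there either, and mutant culture 1 was the lowest of the 8 in both fractions. Unlike Lcn2, Saa3 was not set apart in wild-type culture 3, whose polyribosomal value was above those of wild-type cultures 1 and 4, and its change without that culture was -2.25 in total and -1.94 in polyribosomal RNA. With Y-linked level as a covariate it was -2.39 in total and -2.58 in polyribosomal RNA.

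C3 (chromosome 17, chr17:57203970-57228136, minus strand) encodes the central protein of the complement cascade and is induced by NF-kB and C/EBP factors. C3 was 877, 1046, 2754 and 2331 in mutant and 607, 338, 100.1 and 450.2 in wild-type total RNA. Every mutant culture exceeded every wild-type culture, and mutant cultures 3 and 4 exceeded mutant cultures 1 and 2 by more than 2-fold. C3 rose by a log2 change of 2.32 ± 0.56 (limma, adjusted p = 0.0115). In polyribosomal RNA it was 238, 304, 672 and 780.0 in mutant and 170.0, 123, 59.2 and 123 in wild-type cultures, and it rose by 1.98 ± 0.42 (adjusted p = 0.00937). Microglia also make C3, and their part in the change was not tested. Without mutant cultures 2 and 4, where that sum was highest, the change was 2.32 in total RNA (adjusted p = 0.0568) and 1.84 in polyribosomal RNA (adjusted p = 0.0173). With Y-linked level as a covariate it was 1.50 in total (adjusted p = 0.132) and 1.26 in polyribosomal RNA (adjusted p = 0.139).

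Steap4 (chromosome 5, chr5:7960457-7982213, plus strand) encodes a membrane metalloreductase that reduces iron and copper and is induced by inflammatory cytokines. Its total RNA was 2818, 1982, 5473 and 4421 in mutant and 1110.3, 931, 136 and 1259 in wild-type cultures. The groups did not overlap, and wild-type culture 3 was lowest and mutant culture 3 highest, as for Lcn2. The log2 change was 2.39 ± 0.69 in total RNA and 1.64 without wild-type culture 3. Polyribosomal Steap4 was 712, 564, 965 and 1665 in mutant and 257, 346, 49.7 and 305 in wild-type cultures, a log2 change of 2.22 ± 0.62, and 1.57 without wild-type culture 3. Here mutant culture 4, not culture 3, was highest. With Y-linked level as a covariate Steap4 changed by 1.75 in total and 1.64 in polyribosomal RNA.

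**Figure D1:**
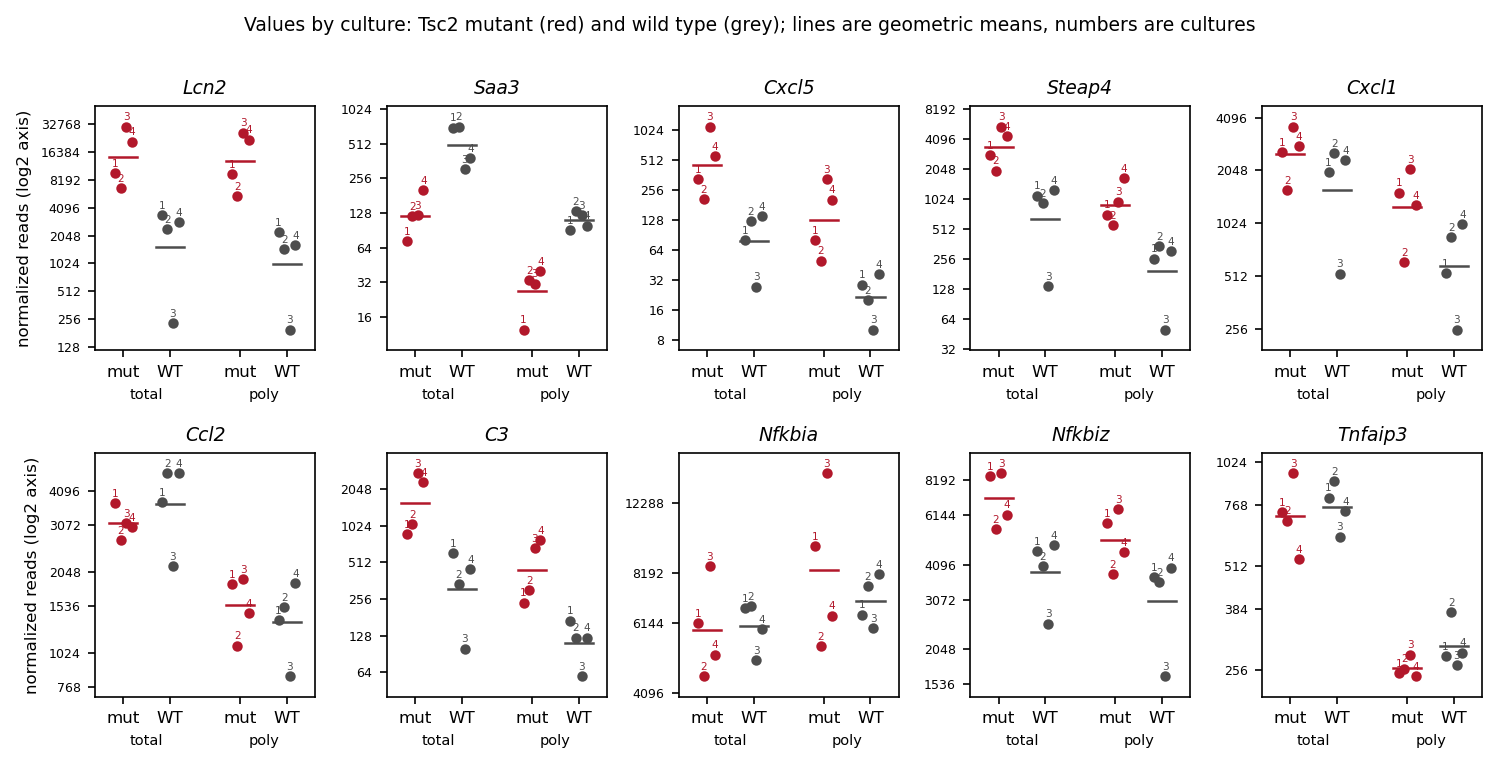
Normalized reads (log2 axis, scaled separately in each panel) of the 10 genes in the 4 Tsc2 mutant (red, mut) and 4 wild-type (grey, WT) cultures, for total and polyribosomal (poly) RNA. Small numbers are culture numbers and lines are geometric means; Lcn2, Cxcl5, Steap4 and C3 lie higher and Saa3 lower in every mutant culture of both fractions, and wild-type culture 3 lies lowest among wild-type cultures for all 10 genes in total RNA.

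The promoters of 7 of the 10 genes were matched by symbol in RefSeq (GRCm38.p6), as windows of 250 bases before to 50 after the start site.
Those of Lcn2 and Saa3 are shown because the 2 genes changed in opposite directions, and that of Steap4 because it followed Lcn2 over the cultures. Capitals mark matches to the C/EBP core TTGCNNAA and, in Steap4 only, to the NF-kB (kB) consensus, both strands searched and each window printed 5′ to 3′ on the strand of the gene.
Lcn2 (chr2:32387690-32387989, minus strand): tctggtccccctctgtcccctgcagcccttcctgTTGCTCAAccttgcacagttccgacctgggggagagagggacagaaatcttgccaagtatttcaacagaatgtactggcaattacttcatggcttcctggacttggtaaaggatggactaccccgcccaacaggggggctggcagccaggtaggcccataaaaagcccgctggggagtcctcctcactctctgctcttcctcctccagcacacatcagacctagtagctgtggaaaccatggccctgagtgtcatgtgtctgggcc
Saa3 (chr7:46715627-46715926, minus strand): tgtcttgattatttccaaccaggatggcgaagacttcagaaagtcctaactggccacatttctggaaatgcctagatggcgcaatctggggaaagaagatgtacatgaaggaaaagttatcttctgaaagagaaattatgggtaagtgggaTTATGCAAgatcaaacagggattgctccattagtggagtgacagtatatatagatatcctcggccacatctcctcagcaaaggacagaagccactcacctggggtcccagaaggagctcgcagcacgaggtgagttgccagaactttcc
Steap4 (chr5:7960222-7960521, plus strand): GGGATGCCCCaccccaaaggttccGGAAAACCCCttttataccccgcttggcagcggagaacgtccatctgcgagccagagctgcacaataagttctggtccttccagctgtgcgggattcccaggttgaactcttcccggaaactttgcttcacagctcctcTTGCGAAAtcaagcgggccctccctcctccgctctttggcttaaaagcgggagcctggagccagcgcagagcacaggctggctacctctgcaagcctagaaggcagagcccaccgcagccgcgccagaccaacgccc
The C/EBP core lay at position -216 in Lcn2, -99 in Saa3, -87 in Steap4 and -45 in C3, counted from the start site, and in 10.1% of 21879 promoter windows of the same length.
The kB consensus lay at -250 and -226 in Steap4, at -71 in Cxcl1 with an overlapping match on the other strand, at -29 in Nfkbia and at -125 and -12 in Tnfaip3, and in 9.34% of all windows. These letters were not found in the windows of Lcn2, Saa3 and C3.
The STAT palindrome TTCNNNGAA was found in Steap4 alone of the 7, at -116, and in 7.96% of all windows.

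Cxcl5 and Cxcl1 encode chemokines that draw neutrophils through the receptor Cxcr2, and both lie on chromosome 5 (Cxcl5 chr5:90759360-90761624 and Cxcl1 chr5:90891241-90893115, plus strand). Cxcl5 was 324, 206, 1097 and 557 in mutant and 80.1, 123, 27.2 and 139 in wild-type total RNA, and 79.6, 49.5, 329 and 203 in mutant and 28.5, 20.0, 10.0 and 36.0 in wild-type polyribosomal RNA. Neither fraction showed overlap, and mutant culture 3 was highest in both. The log2 change of Cxcl5 was 2.51 ± 0.58 in total and 2.52 ± 0.57 in polyribosomal RNA, and 1.73 and 1.61 with Y-linked level as a covariate. Cxcl1, a close relative on the same chromosome, gave 2616, 1587, 3636 and 2829 in mutant and 1996, 2574, 530.0 and 2341 in wild-type total RNA. Its groups overlapped, and only wild-type culture 3 stood clearly below the mutant cultures. Its log2 change of 0.69 ± 0.48 did not pass the test (adjusted p = 0.27) and was 0.16 without wild-type culture 3. Polyribosomal Cxcl1 was 1529.9, 614, 2078 and 1299 in mutant and 533, 859, 254 and 1014 in wild-type cultures, a log2 change of 1.11 ± 0.49 (adjusted p = 0.131). Without mutant culture 2, the lowest of the mutants, it was 1.45 and passed (adjusted p = 0.0272), and without wild-type culture 3 it was 0.70 (adjusted p = 0.226).

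Ccl2 (chromosome 11, chr11:82035571-82037453, plus strand) encodes a chemokine that draws monocytes through Ccr2. It was 3698, 2695, 3118 and 3004 in mutant and 3728, 4762, 2156 and 4763 in wild-type total RNA. The mutant values fell inside the wild-type range, which wild-type culture 3 set at its lower end. The log2 change was -0.24 ± 0.23 (adjusted p = 0.415), and without wild-type culture 3 it was -0.50 and passed the test (adjusted p = 0.0242). Polyribosomal Ccl2 was 1847, 1093, 1929.9 and 1442 in mutant and 1360.2, 1517, 839.7 and 1861 in wild-type cultures, a log2 change of 0.20 ± 0.24 (adjusted p = 0.579), and -0.025 without wild-type culture 3.

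Of the 3 NF-kB feedback genes Nfkbiz alone passed the test, and only in total RNA. Nfkbiz (chromosome 16, chr16:55811375-55838899, minus strand) was 8487, 5477, 8685 and 6187 in mutant and 4573, 4044, 2522 and 4807 in wild-type total RNA. The groups did not overlap, and it rose by a log2 change of 0.87 ± 0.22 (limma, adjusted p = 0.0117), and with Y-linked level as a covariate the change was 0.87 and did not pass (adjusted p = 0.0861). It was 5757, 3799.7, 6465 and 4550.4 in mutant and 3703, 3539, 1635 and 3997 in wild-type polyribosomal RNA, where mutant culture 2 fell below wild-type culture 4. The polyribosomal change of 0.73 ± 0.27 did not pass (adjusted p = 0.0723), although it did without mutant culture 2 (adjusted p = 0.04), and it was 0.43 without wild-type culture 3.

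Nfkbia (chromosome 12, chr12:55489410-55492647, minus strand) was 6130.3, 4522, 8545 and 5126 in mutant and 6693, 6787, 4968 and 5934 in wild-type total RNA. Mutant culture 3 was above and mutant culture 2 below every wild-type culture, so the groups overlapped (log2 change -0.035 ± 0.18, adjusted p = 0.889), and the sign of this small change turned when the libraries were scaled to equal totals (0.062). In polyribosomal RNA it was 9565, 5372, 14564 and 6416 in mutant and 6450.4, 7620.1, 5963 and 8151 in wild-type cultures, a log2 change of 0.25 ± 0.26 (adjusted p = 0.512). Mutant cultures 1 and 3 lay above all wild-type cultures and mutant culture 2 below them, and without mutant cultures 2 and 4 the change was 0.76 and passed (adjusted p = 0.0103). Tnfaip3 (chromosome 10, chr10:19000910-19015657, minus strand) was 733, 694, 951 and 536 in mutant and 809, 901, 624 and 740.2 in wild-type total RNA, and 251, 259, 284 and 246 in mutant and 281, 378, 265 and 288 in wild-type polyribosomal RNA. Its groups overlapped in both fractions, with log2 changes of -0.094 ± 0.18 (adjusted p = 0.691) and -0.21 ± 0.17 (adjusted p = 0.39).

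Lcn2, Cxcl5, Steap4 and Saa3 were chosen on their genotype changes and are not counted here. Of the other 6 genes C3 and Nfkbiz were higher and none was lower in mutant total RNA, where 19.7% of 14967 genes tested were higher and 20.7% were lower (40.3% in either direction). In polyribosomal RNA C3 alone passed, and was higher, against 11.7% higher and 11.9% lower of 14412 genes (23.6% in either direction). All mutant cultures lay above all wild-type cultures for C3 and Nfkbiz in total RNA and for C3 in polyribosomal RNA, as did 17.8% and 13.3% of all genes tested, and none of the 6 lay below, as did 20.3% and 14.6%. These 6 genes too were put on the list with results known. The median log2 change over all genes was 0.01 in each fraction. With the libraries scaled to equal totals the median gene moved to 0.11 in total and 0.13 in polyribosomal RNA, and the calls over all genes split into 3838 higher and 2263 lower in total RNA (2944 and 3091 as deposited) and 2579 and 927 in polyribosomal RNA (1690 and 1713). Fewer cells of a type and less RNA per cell cannot be told apart in these bulk samples.

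**Figure D2:**
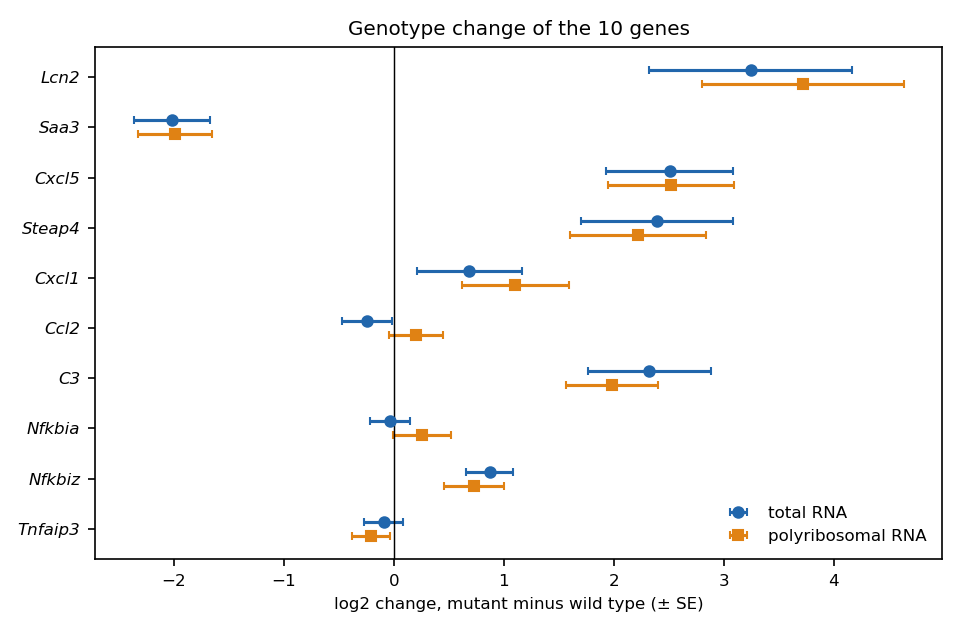
Log2 change of each of the 10 genes (mutant minus wild type, horizontal axis) in total RNA (circles) and polyribosomal RNA (squares), with standard errors from the fits over 4 cultures a genotype. Lcn2, Cxcl5, Steap4 and C3 lie near or above 2, Saa3 near -2, and Ccl2, Nfkbia and Tnfaip3 close to 0.

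Per kilobase of transcript, which allows genes to be compared, the order of the levels differed between genotypes. In mutant total RNA Lcn2 led with 18817 ± 12159 normalized reads per kb (mean ± SD, n = 4), followed by Nfkbia with 3854 ± 1123, Ccl2 with 3848 ± 516 and Cxcl1 with 2799 ± 885. In wild-type total RNA Ccl2 led with 4738 ± 1515, followed by Nfkbia with 3863 ± 534, Lcn2 with 2438 ± 1532 and Cxcl1 with 1952 ± 963. Lcn2 thus led the 10 in the mutant and followed Ccl2 and Nfkbia in the wild type, where it, Cxcl1, Nfkbia and Ccl2 lay within the spread of their neighbours. Saa3 was above Tnfaip3 alone in the mutant with 233 ± 96.6 per kb, and in the wild type it was close to Nfkbiz with 954 ± 384. Cxcl5 and C3 were within their spread of each other in both genotypes, with 347 ± 251 and 341 ± 181 in the mutant and 58.5 ± 31.6 and 72.8 ± 41.5 in the wild type.

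Several of these genes varied together from culture to culture within a genotype. Taken as deviations from the 4 group means over 16 libraries, Lcn2 had a Pearson correlation of 0.96 with Steap4, 0.92 with C3, 0.88 with Cxcl5, 0.88 with Cxcl1, 0.84 with Nfkbiz, 0.78 with Ccl2, 0.54 with Nfkbia, 0.44 with Tnfaip3 and 0.35 with Saa3. Spearman values of Lcn2 were 0.75 with Steap4, 0.92 with C3, 0.50 with Ccl2 and 0.22 with Saa3, and the low values of wild-type culture 3 enter all of these. The 2 fractions of a culture share cells and the values within a table share a scale, so these are descriptions. Wild-type culture 3 was the lowest wild-type culture for all 10 genes in total RNA and for 9 in polyribosomal RNA, and Saa3 was the exception. Mutant culture 2 was the lowest mutant culture for 7 of 10 genes in each fraction, and mutant culture 3 the highest for 8 in total and 7 in polyribosomal RNA. How often these cultures were extreme over all genes was not counted, so the pattern is not shown to be particular to the 10 genes. Among 14323 other genes, those with the highest Pearson values with Lcn2 were Naprt (0.95), Anxa5 (0.94), Emc9 (0.93), Icam1 (0.92) and Echdc3 (0.92). Those with Saa3 were Tor3a (0.87), Alx4 (0.85), Prkcd (0.83), H2-D1 (0.80) and Rnaset2b (0.80). In the same order the Spearman values were 0.91, 0.86, 0.70, 0.85 and 0.76 with Lcn2, and 0.83, 0.81, 0.68, 0.74 and 0.68 with Saa3. Values picked as the highest of a search are high by construction, and wild-type culture 3 enters them too.

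**Figure D3:**
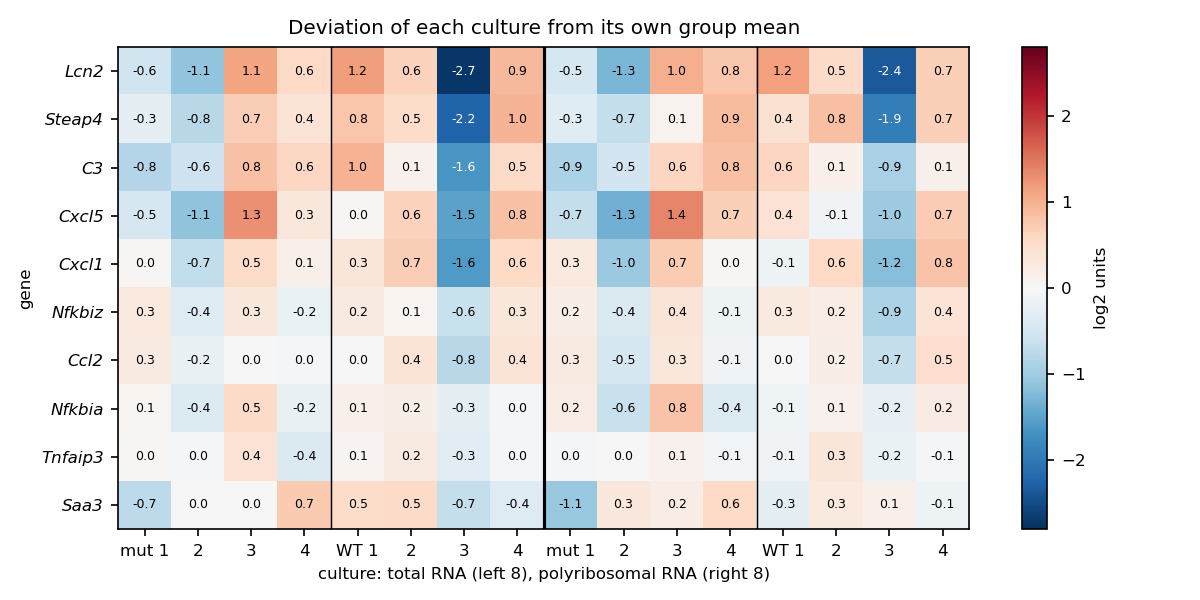
Deviation of each library from its own group mean (log2 units, colour and number) for the 10 genes (rows), in mutant (mut) and wild-type (WT) cultures 1 to 4 of total RNA (left 8 columns) and polyribosomal RNA (right 8 columns). Wild-type culture 3 is low for Lcn2, Steap4, C3, Cxcl5 and Cxcl1 in both fractions, mutant culture 2 is low and mutant culture 3 mostly high, and Saa3 in the bottom row differs.

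Translational efficiency, the polyribosomal level relative to total RNA of the same culture, was tested as the interaction of genotype with fraction, blocking on culture, in all 16 libraries. The rule did not use this ratio itself, but Lcn2, Cxcl5, Steap4 and Saa3 were chosen on the values that make it up. Their results on it are therefore descriptions. Among the genes not chosen that way Ccl2 alone passed, and it was higher in the mutant. Over all 14333 genes tested 5.07% were higher and 7.89% were lower (13.0% in either direction). Lcn2 was 0.55, 0.29, 0.39 and 0.67 log2 units from the wild-type mean in mutant cultures 1 to 4 and -0.018, -0.12, 0.37 and -0.23 in wild-type cultures 1 to 4. Wild-type culture 3 overlapped the mutant cultures and the other wild-type cultures lay below them, and the difference was 0.47 ± 0.14. Ccl2 was 0.45, 0.15, 0.76 and 0.40 in mutant and 0.00076, -0.20, 0.095 and 0.099 in wild-type cultures, and the difference was 0.44 ± 0.14 (limma, adjusted p = 0.0456). All mutant cultures lay above all wild-type cultures for Ccl2, as for 8.16% of all genes. The call of Ccl2 was lost without mutant culture 1, 3 or 4 or wild-type culture 2, 3 or 4 (limma, adjusted p from 0.0638 to 0.16). Limma without a variance trend or robust moderation called none of the 10 (2 had an unadjusted p under 0.05).

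Cxcl1, Nfkbia, C3, Nfkbiz and Tnfaip3 did not pass. Cxcl1 was 0.66, 0.068, 0.63 and 0.32 in mutant and -0.47, -0.14, 0.38 and 0.23 in wild-type cultures, a difference of 0.42 ± 0.18 (adjusted p = 0.138). Nfkbia differed by 0.29 ± 0.14 (adjusted p = 0.19) and C3 by -0.34 ± 0.22 (adjusted p = 0.308). For Saa3, Cxcl5, Steap4, Nfkbiz and Tnfaip3 the differences were 0.029 ± 0.29, 0.012 ± 0.27, -0.17 ± 0.22, -0.14 ± 0.12 and -0.11 ± 0.17. The differences of Saa3 and Cxcl5 were smaller than their standard errors.

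**Figure D4:**
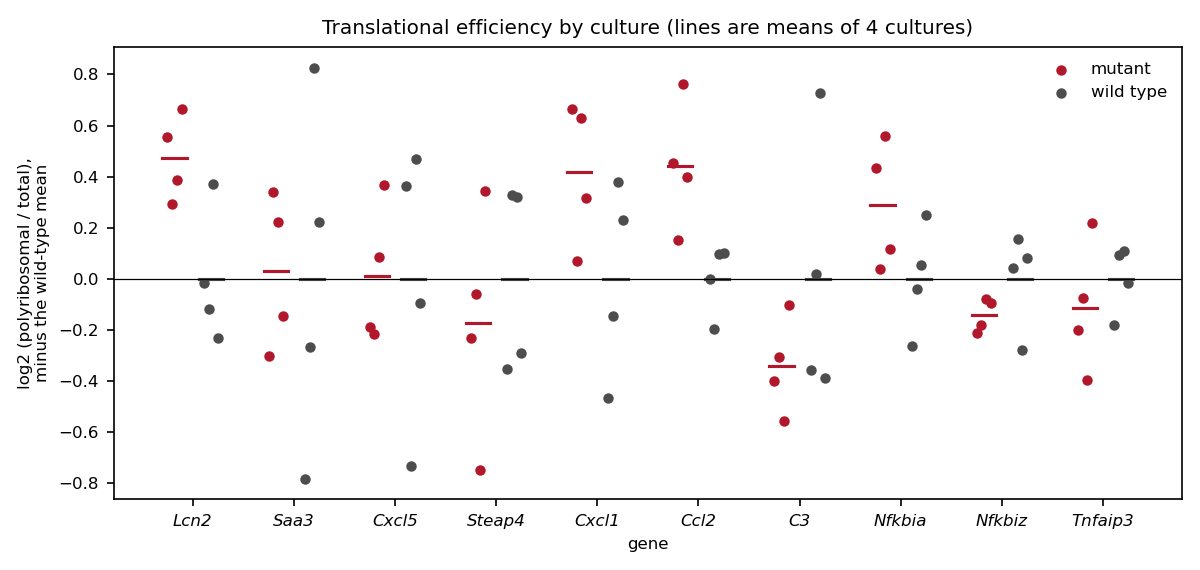
Translational efficiency of the 10 genes by culture, as log2 of polyribosomal over total RNA minus the wild-type mean (vertical axis), in mutant (red) and wild-type (grey) cultures, with the mean of 4 cultures as a line. Lcn2 and Ccl2 lie higher in the mutant, and wild-type culture 3 of Lcn2 lies among the mutant cultures.

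AU-rich elements in the 3′ UTR mark short-lived inflammatory mRNAs for decay.
The nonamer TTATTTATT was found, on the transcript strand, in the 3′ UTR of Cxcl1 and Nfkbia, and the 3′ UTRs of the other 8 genes are not described here. The nonamer occurred in 7.11% of 19902 genes and 4.04% of 14317 genes with a 3′ UTR in the same range of length (GENCODE principal transcripts, GRCm38).
A site of each is printed, with the nonamer in capitals, to show its surroundings.
Cxcl1: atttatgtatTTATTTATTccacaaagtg
Nfkbia: ggaccacgttTTATTTATTgtgcttttga
Cxcl1 held a further match. The match is a description, and mRNA stability was not measured.

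Beside the 10 genes, 12 lists of related genes held 206 genes found in the tables. Counts on these lists, here and below, are to be read beside the shares over all genes tested. Those were 19.7% higher and 20.7% lower in total RNA, and 11.7% and 11.9% in polyribosomal RNA. Of 168 listed genes tested in total RNA 54 (32.1%) were higher and 13 (7.74%) lower. Of 163 in polyribosomal RNA 36 (22.1%) were higher and 13 (7.98%) lower. With Y-linked level as a covariate 2 were higher and 3 lower in total RNA, and 2 and 0 in polyribosomal RNA, so most calls on these lists rest on the fit without it. Without mutant cultures 2 and 4, 64 were higher in total and 54 in polyribosomal RNA, and the listed genes lower in polyribosomal RNA increased as well. Calls over all genes also rose without these cultures, from 6035 to 6778 in total and from 3403 to 5395 in polyribosomal RNA. Of 11 inducing cytokines tested 3 were higher and 3 were lower in mutant total RNA, and 2 were higher and 1 was lower in polyribosomal RNA. Il1b, a main inducer of Lcn2 and Saa3, fell to 5.19 ± 2.47 in mutant against 41.2 ± 21.0 in wild-type total RNA (SD, n = 4 each; log2 change -2.69 ± 0.52, adjusted p = 0.00494), and it also fell in polyribosomal RNA (-3.29 ± 0.51, adjusted p = 0.00271). These are low values, and with a pseudocount of 8 the Il1b changes were -1.79 in total and -2.18 in polyribosomal RNA. With Y-linked level as a covariate neither passed with limma (adjusted p = 0.0625 and 0.0657). Tnf fell to 91.0 ± 75.2 against 309 ± 62.4 (-2.05 ± 0.46, adjusted p = 0.00788), while its polyribosomal change of -2.21 ± 0.79 did not pass (adjusted p = 0.0739). Il33, an alarmin, rose by 1.44 ± 0.31 in total RNA (adjusted p = 0.00682). Il6 was at 1.43 to 4.37 in mutant and 2.68 to 6.20 in wild-type total RNA and was not tested; it lies outside the naming rule. Of 29 receptors and adaptors 12 were higher in total and 6 in polyribosomal RNA, and none was lower. The higher ones included Tlr4, the endotoxin receptor (0.99 ± 0.19, adjusted p = 0.00484), its co-receptor Cd14 (1.37 ± 0.30, adjusted p = 0.0076) and Osmr, the oncostatin M receptor (1.71 ± 0.34, adjusted p = 0.00508). Il1b and Tnf are made by microglia, whose marker sum was higher in mutant cultures 2 and 4. Without those cultures the total RNA changes were -2.47 and -2.79.

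No change passed the test for the NF-kB core in total RNA, where none of 11 subunit and kinase genes passed with limma, with or without the variance trend, and 2 had an unadjusted p under 0.05 either way. In polyribosomal RNA Nfkb2 alone passed and was lower in the mutant (-0.61 ± 0.17, adjusted p = 0.0245), and Nfkb1 and Nfkb2 had lower translational efficiency (-0.35 ± 0.11, adjusted p = 0.0495, and -0.44 ± 0.13, adjusted p = 0.0322). Of 19 other inhibitors and feedback genes 5 were higher in total RNA, among them the mRNA decay factor Zfp36 (1.21 ± 0.34, adjusted p = 0.0187), and 3 were higher and 1 was lower in polyribosomal RNA. Of the effector targets 3 of 16 (18.8%) were higher and 2 (12.5%) were lower in total RNA. In polyribosomal RNA 2 of 17 (11.8%) were higher and 1 (5.88%) was lower. The shares higher were near those over all genes tested (19.7% and 11.7%). Icam1, an adhesion molecule, rose by 1.01 ± 0.28 (adjusted p = 0.017). The STAT3 and C/EBP axis had 4 higher and 2 lower of 16 in total RNA and 1 higher and 3 lower in polyribosomal RNA. Stat3 rose in total RNA (0.48 ± 0.12, adjusted p = 0.0114) and Cebpa fell (-0.44 ± 0.12, adjusted p = 0.0167).

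Other acute phase and complement genes were mostly higher in the mutant, as Lcn2 and C3 were. Of 12 other acute phase genes tested 7 were higher in total RNA and none was lower (median 0.97), and of 10 in polyribosomal RNA 7 were higher and 1 was lower (median 1.26). Cp, the copper carrier ceruloplasmin, reached 23222 ± 9377 in mutant against 5266 ± 1965 in wild-type total RNA (2.15 ± 0.35, adjusted p = 0.00313), and 4305 ± 1019 against 835 ± 226 in polyribosomal RNA (2.38 ± 0.22, adjusted p = 0.000274). A2m, a protease inhibitor, rose by 1.40 ± 0.26 (adjusted p = 0.00432). Of 14 complement genes other than C3, 10 were higher in total RNA, and of 12 in polyribosomal RNA 8 were higher, with none lower. They included clusterin (Clu, 1.58 ± 0.19, adjusted p = 0.0025), the membrane attack inhibitor Cd59a (1.75 ± 0.33, adjusted p = 0.00467) and the lectin pathway protease Masp1 (0.86 ± 0.08, adjusted p = 0.000911). The medians of the complement genes were 1.04 and 1.17, against 0.01 over all genes. Astrocytes, microglia and choroid plexus express several of these genes, and the part of the higher marker levels was not tested. In polyribosomal RNA, where 11.7% of all genes tested were higher and 11.9% lower, 4 of 6 choroid plexus and ependymal markers were higher and 0 lower. Of 7 astrocyte markers 4 were higher and 1 lower. Their sums overlapped there, at 12641.5 to 15227.8 in mutant and 12112.7 to 15387.7 in wild type for choroid plexus and ependyma. For astrocytes they were 233154 to 328441 and 227836 to 263392. Of 16 microglial markers 0 passed with limma in polyribosomal RNA, with or without the variance trend (1 at an unadjusted p under 0.05 either way).

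The other chemokines were divided, with 5 higher (29.4%) and 4 lower (23.5%) of 17 in total RNA. In polyribosomal RNA 2 were higher and 2 lower of 15 (13.3% each). Over all genes tested 19.7% were higher and 20.7% lower in total RNA, and 11.7% and 11.9% in polyribosomal RNA. Ccl5, which attracts T cells, was 8.20 to 33.7 in mutant and 110.5 to 136 in wild-type total RNA and fell (-2.75 ± 0.37, adjusted p = 0.00257), and the interferon-induced Cxcl10 fell to 561 ± 147 against 1525 ± 466 (-1.42 ± 0.23, adjusted p = 0.00313). Cxcl14 rose by 0.84 ± 0.14 (adjusted p = 0.00327).

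**Figure D5:**
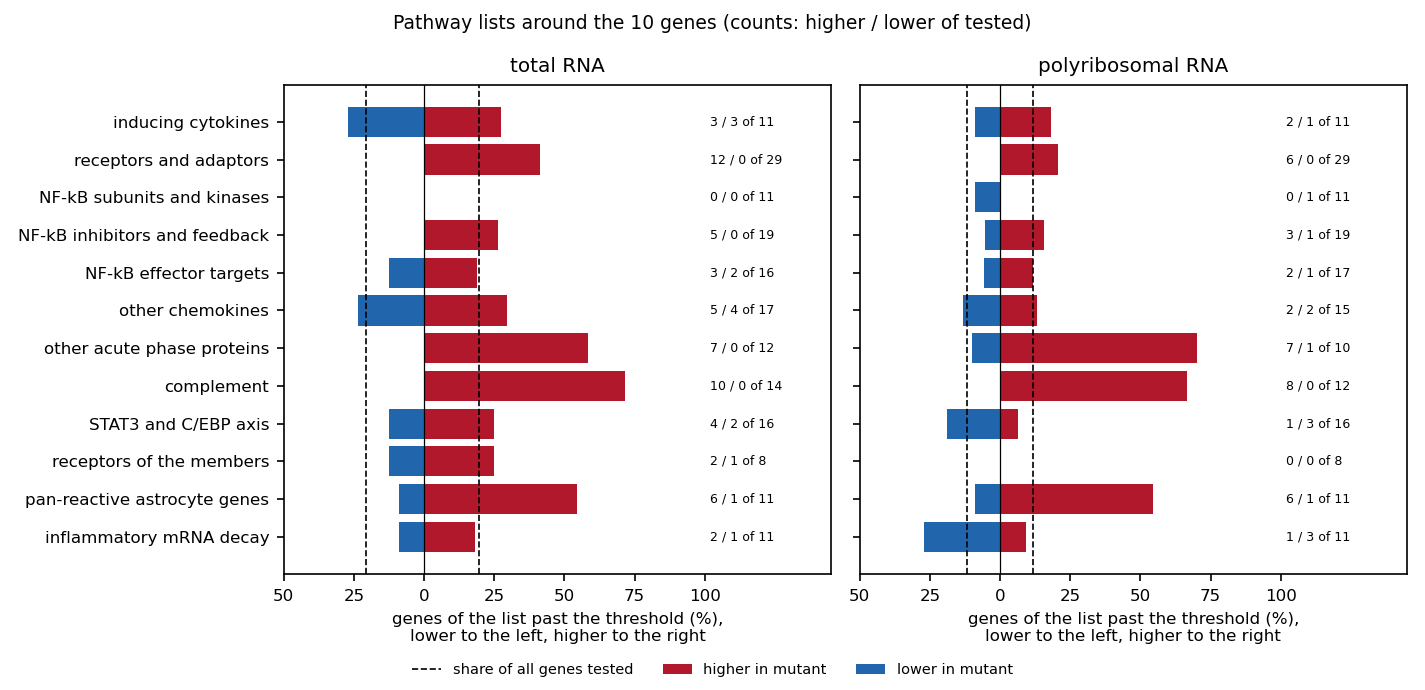
Share of the genes tested of each pathway list that passed the test (horizontal axis, percent; lower in the mutant in blue to the left, higher in red to the right) in total RNA (left) and polyribosomal RNA (right). Dashed lines mark the shares over all genes tested, 19.7% higher and 20.7% lower in total RNA and 11.7% and 11.9% in polyribosomal RNA, and the numbers give genes higher and lower of those tested; complement and the other acute phase proteins lie furthest to the right.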

How the data were processed

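Total and polyribosomal RNA of 4 mutant and 4 wild-type cultures were measured by paired-end sequencing of polyadenylated RNA and the kit keeps no strand information, which leaves overlapping and antisense genes uncertain. Adapter trimming, STAR alignment to mm10 and DESeq2 normalization were done by the authors. The deposited values are a signal, namely reads per gene divided by a normalization factor, in 1 table a fraction, so levels are not compared across fractions. The read counter is not given in the sources used here. Of 24972 rows, 26 whose names had become dates were left out. Low values lay within 0.1 of a whole multiple of the value of 1 read for 70.4% to 93.4% of genes a library, so whole reads were not recovered and no count model was fitted. Depth was estimated as the column total over that step.

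Values were tested as log2(value + 1) with limma 3.58.1 (R 4.3.3), a scale that understates changes of low genes, using a variance trend, robust moderation and Benjamini-Hochberg adjustment over all genes with a mean of at least 10, at a threshold of 0.05. Total and polyribosomal RNA were fitted by genotype, and translational efficiency as the interaction of genotype and fraction with culture as a block, since both libraries of a culture carry its number and their deviations correlated at 0.233 to 0.731. Scripts were tested on simulated data. The members and lists were chosen with earlier results of these data known. Named genes were the 10 members, up to 3 genes a list with the smallest p in total and in polyribosomal RNA, those past the threshold for translational efficiency, the 5 most like Lcn2 or Saa3, Tsc2, and defining markers; not all are printed. Pathway lists covered inducing cytokines, receptors and adaptors, NF-kB subunits, feedback and effectors, chemokines, acute phase, complement, STAT3 and C/EBP, member receptors, pan-reactive astrocyte and mRNA decay genes. Promoters came from RefSeq and transcripts from GENCODE M21, and 1 sequence match is not reported here. Alternatives changed the pseudocount, filter, scaling, moderation, block, a Y-linked term and cultures.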

Additional observations from a re-analysis of the deposited data

Results flagged for a closer look

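In 5 of 40 groups of 4 cultures, a wild-type culture lay far from the other 3, and it was culture 3 each time. The gap to its nearest neighbour, over the range of the group on a log2 scale, exceeded Dixon's 95% critical value. Chance flags about 1 in 20 groups, but the genes share their cultures. Lcn2 and Steap4 were also chosen on a genotype change that a low wild-type culture enlarges, so that rate is no yardstick for this count. Lcn2 was 231 in wild-type culture 3 in total RNA (0.865 of the range). Steap4 was 136 in total RNA (0.864) and 49.7 in polyribosomal RNA (0.846) there. Cxcl1 was 530.0 in total RNA (0.839) and Nfkbiz was 1635 in polyribosomal RNA (0.864) there. The astrocyte gene Gfap was also lowest in wild-type culture 3 (21502, 15234, 9309 and 15004 in wild-type cultures 1 to 4, total RNA). So were the summed microglial, astrocyte, endothelial, pericyte and fibroblast, choroid plexus and ependymal, and neutrophil levels of wild-type total RNA. In polyribosomal RNA, where Steap4 and Nfkbiz were also flagged, it was lowest only for the endothelial and the choroid plexus and ependymal sums. The microglial, astrocyte, pericyte and fibroblast, and neutrophil sums were lowest in other wild-type cultures there. The stem cell sum was lowest in wild-type culture 2 instead. The part of these cell types in the low values was not tested. No mutant group was set apart by this measure.

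By the test of translational efficiency the change of Ccl2 differed between the fractions, with 0.44 log2 units more in polyribosomal RNA. For Lcn2 the difference was 0.47. Lcn2 was chosen on values that make up this ratio, so its result is a description. Ccl2 was higher in all 4 mutant than in all 4 wild-type cultures by this ratio, while for Lcn2 wild-type culture 3 overlapped. The limma adjusted p of Ccl2 over 18 alternatives ranged from 0.0249 to 0.595.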

How the results depend on the processing

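The direction of Lcn2, Cxcl5, Steap4, C3 and Nfkbiz (higher) and of Saa3 (lower) held in both fractions under all 18 alternatives of each fit. Lcn2, Cxcl5, Steap4 and Saa3 were chosen on that direction. Their genotype groups and those of C3 did not overlap in either fraction, so leaving out cultures could not turn it. C3 passed with limma in 16 of 18 alternatives in total and 17 in polyribosomal RNA, and Nfkbiz in 17 and 3. Without wild-type culture 3 Cxcl5 was 2.01 in total and 2.18 in polyribosomal RNA, C3 was 1.78 and 1.68, and Nfkbiz was 0.66 and 0.43. The edgeR alternative was not run because whole reads were not recovered. With Y-linked level as a covariate, which was low in 3 of 4 mutant and 1 of 4 wild-type cultures, 741 genes passed in total RNA and 30 in polyribosomal RNA, 2 listed genes were higher and 3 lower in total RNA, 2 were higher and 0 lower in polyribosomal RNA (of the 168 and 163 listed genes tested), and Tsc2 in total RNA changed sign (0.019). For translational efficiency 0 of 14333 genes passed with that covariate (2173 at an unadjusted p under 0.05), 0 with limma without trend or robust moderation (3980) and 0 with no replicate block (2221), listed genes included. Listed genes with lower translational efficiency were 19, and 11 with no filter on low values, 11 with equal column totals and 11 without mutant cultures 2 and 4. Without those cultures 5395 genes passed in polyribosomal RNA, and 23 listed genes were lower, against 3403 and 13.

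Label numbers did not pair mutant with wild-type cultures (correlations of deviations from -0.13 to 0.10). With the number as a replicate block 4741 genes passed in total and 2361 in polyribosomal RNA, and no call of a member was lost. 

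Leaving out a culture at a time, the genes called ranged from 4190 to 6648 in total RNA, 1888 to 4086 in polyribosomal RNA and 647 to 3282 for translational efficiency. Listed genes ranged from 35 to 63 higher and 9 to 13 lower in total RNA, 23 to 41 higher and 6 to 18 lower in polyribosomal RNA, and 3 to 9 higher and 6 to 23 lower for translational efficiency. The count over all genes moved by over 1.5 times in polyribosomal RNA without mutant culture 1 (2090) or 3 (2149) or wild-type culture 1 (2138), 2 (1888) or 3 (1897), and for translational efficiency without mutant culture 1 (647) or 3 (1227) or wild-type culture 1 (3282), 2 (843) or 3 (765).

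Changes that reversed were those not past the threshold. Cxcl5 translational efficiency was -0.19 with a pseudocount of 8, -0.012 with equal medians, -0.053 without mutant cultures 2 and 4, -0.12 with the Y covariate and -0.23 to 0.17 without single cultures. That of Saa3 was -0.039, -0.19 and -0.23 to 0.30 under the last 3 of these. Nfkbia and Tnfaip3 in total RNA were 0.062 and 0.0033 with equal column totals, 0.26 and 0.13 without mutant cultures 2 and 4, and -0.21 to 0.093 and -0.23 to 0.043 without single cultures. Without single cultures Ccl2 ranged from -0.025 to 0.36 and Nfkbia from -0.017 to 0.46 in polyribosomal RNA, and Steap4 translational efficiency from -0.35 to 0.018.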

Other observations

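Of 8 receptors of the members 2 were higher and 1 was lower in total RNA, and none passed in polyribosomal RNA with limma with or without the variance trend (0 had an unadjusted p under 0.05). Itgam and Itgb2, which form a receptor for C3 fragments on microglia, rose by 1.81 ± 0.38 (adjusted p = 0.00609) and 1.65 ± 0.27 (adjusted p = 0.00327) in total RNA and had lower translational efficiency (-2.25 ± 0.49, adjusted p = 0.0122, and -1.25 ± 0.23, adjusted p = 0.0064). Of 16 microglial markers tested 7 had lower and none had higher translational efficiency, against 7.89% lower and 5.07% higher over all genes tested. Limma without trend or robust moderation called 0 of these markers (10 at an unadjusted p under 0.05), and the part of microglia in these values was not tested. Scarb1, a receptor of serum amyloid A, was lower in total RNA (-0.25 ± 0.09, adjusted p = 0.0391).

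Of 11 pan-reactive astrocyte genes 6 were higher and 1 was lower in each fraction, with Cp and Osmr among the higher and Cxcl10 the lower. Of 11 genes of inflammatory mRNA decay 2 were higher and 1 was lower in total RNA, and 1 was higher and 3 were lower in polyribosomal RNA. Elavl1, which stabilizes mRNAs with AU-rich elements, fell to 4332 ± 520.3 in mutant against 6427 ± 372 in wild-type total RNA (-0.58 ± 0.10, adjusted p = 0.00356). The decay factors Zfp36l1, Zfp36l2 and Khsrp had lower translational efficiency in the mutant (-0.70 ± 0.14, -0.74 ± 0.14 and -0.64 ± 0.17, adjusted p = 0.00763, 0.00627 and 0.0208). The metallothioneins Mt1 and Mt2 had higher translational efficiency (0.75 ± 0.17, adjusted p = 0.0113, and 0.73 ± 0.15, adjusted p = 0.00789), as did the cytokine Cntf (1.18 ± 0.22, adjusted p = 0.00663).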
